A study of Mus musculus with 4 samples.

Results

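The genes described here encode the matrix metalloproteinases (MMPs), the ADAM and ADAMTS metalloproteinases with the ADAMTS-like proteins, the tissue inhibitors of metalloproteinases (TIMPs), the membrane-anchored inhibitor RECK and the protease-activating convertase furin. They were taken by gene symbol, which gave 78 genes of the 19087 named on the array. Of these, 42 had at least 1 probe with a value on all 4 arrays, against 11842 of all named genes, and the ratios below are those of the 42 unless stated. The porous polyethylene scaffolds were coated with collagen, coated with PMB (a phospholipid-like copolymer of MPC and butyl methacrylate that repels cells), or left non-coated. Each of the 3 kinds was carried by a single male mouse (C57BL/6, 8 weeks old), in which it lay under the skin of the back for 7 days. The tissue at and just around each scaffold was cut out by laser microdissection, so every RNA extract held a mixture of cell types.

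Each array compared 1 coated extract with the non-coated extract, which both coatings share. The coated sample carried Cy5 on replicate 1 and Cy3 on replicate 2, so both arrays of a coating hold the same RNA with the dyes exchanged and count as 1 sample. The deposited values of the 2 arrays correlated at -0.79 for collagen and -0.66 for PMB over 22380 probes, and the sign of replicate 2 was therefore turned. All ratios are in log2. They set a coated scaffold over the non-coated one and, where stated, collagen over PMB. The SD given with ± is that of the 2 arrays and is a technical error without any difference between mice. It is often smaller for the ratio of the coatings, in which arrays of the same dye orientation were set against each other. A single mouse per scaffold allows no test, so p-values are absent. A gene is called higher or lower where its mean was at least 2-fold from 0 with the same sign on both arrays. In mixed tissue, fewer cells of a type and less RNA per cell cannot be told apart.

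MMPs are zinc-dependent enzymes that cut collagens, elastin and other matrix proteins, and most are secreted as inactive precursors. ADAMs sit in the cell membrane and release growth factors, cytokines and receptors from it, while ADAMTS enzymes are secreted and cut proteoglycans or trim procollagens. ADAMTS-like proteins resemble them but lack the catalytic part. TIMPs bind the active site of these enzymes, and furin removes the inhibitory propeptide of the membrane-type MMPs, Mmp11 and many ADAMs and ADAMTS enzymes. During wound healing and the reaction to implants these proteins take part in cell migration, vessel growth and the remodeling of the capsule.

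The MMP genes stood mostly above the non-coated scaffold at the collagen-coated one, and the ADAMTS genes mostly below it. Above 0 were 9 of 12 MMPs, against 6523 of all 11842 measured genes. Below 0 were 11 of 14 ADAMTS and ADAMTS-like genes, against 5309 of all 11842. With collagen, 4 of the 42 measured members were at least 2-fold higher (9.52%), against 2.21% of all 11842 measured genes. In the same comparison 7 members were lower (16.7%), against 3.38% of all genes. The higher genes were Mmp9, Mmp3, Mmp8 and Adamts7. The lower genes were Mmp12, Adamts19, Adamts6, Adamtsl1, Adamtsl4, Adamtsl5 and Timp3. With PMB none was higher, against 0.616% of all genes, and 1 was lower, Mmp10, against 1.40%. Mmp8, Mmp9, Mmp10, Adamts7 and Adamts19 are also among the genes that the study selected on these arrays, which means that their direction here is no independent evidence.

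By class, the median log2 ratio with collagen was 0.48 for 12 MMPs, 0.011 for 11 ADAMs, -0.83 for 14 ADAMTS and ADAMTS-like genes and -0.39 for the 4 measured inhibitors. On single collagen arrays the inhibitor median was -0.57 and -0.20. The median of all named genes was 0.036. With PMB the same medians were 0.14, 0.16, -0.0073 and 0.14, with 0.022 for all named genes. The classes therefore lay further apart with collagen than with PMB. Probes as a whole also spread more widely with collagen, so this is not particular to these classes. The SD over all probes with 4 values was 0.51 and 0.56 on the collagen arrays and 0.39 and 0.48 on the PMB arrays. Within a class the genes ran in both directions, and with collagen the MMPs ranged between -1.13 and 2.87 and the ADAMTS group between -2.71 and 1.38.

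**Figure D1:**
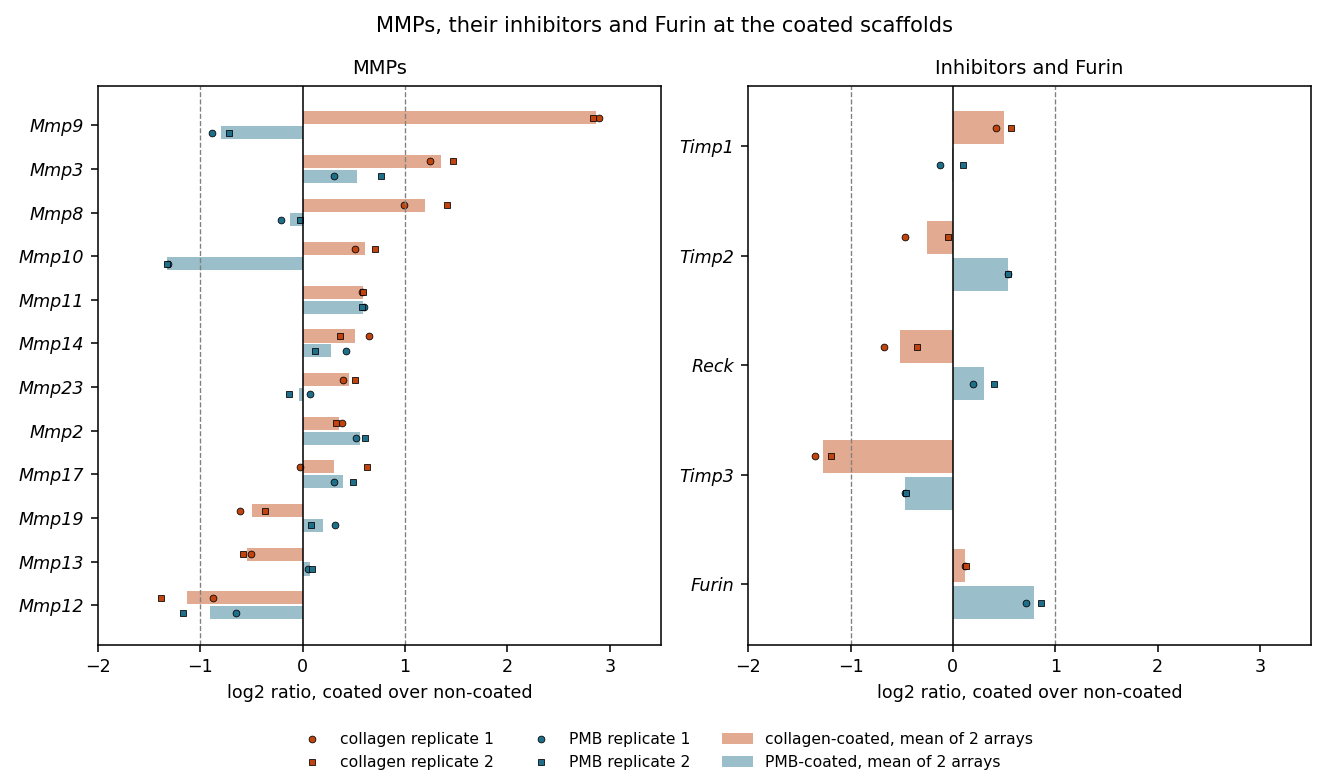
Log2 ratios of coated over non-coated for the 12 measured MMPs (left) and for 4 inhibitors and Furin (right). Bars are the mean of the 2 arrays, circles replicate 1 and squares replicate 2, and dashed lines mark 2-fold. Mmp9 stands at 2.87 with collagen and -0.80 with PMB, and Timp3 is the lowest inhibitor with both coatings.

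Mmp9, the gelatinase B that neutrophils store in granules and macrophages secrete, had the highest ratio of all measured members with collagen. It was at 2.90 and 2.84 on the 2 collagen arrays and at -0.88 and -0.72 on the 2 PMB arrays. The mean was 2.87 ± 0.045 with collagen, a 7.30-fold higher level, and -0.80 ± 0.11 with PMB. The array held 10 entries of Mmp9 with 4 values, which ran between 2.52 and 3.03 with collagen and between -0.96 and -0.64 with PMB. No entry of the gene came near 0 in either comparison, and the entries are not independent samples. The SD over the 10 entries was 0.134 with collagen and 0.116 with PMB. Against PMB, Mmp9 was 12.7-fold higher with collagen, at 3.67 ± 0.16 in log2.

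The other gelatinase, Mmp2, which fibroblasts make steadily, differed little between the coatings. Its ratios were 0.38 and 0.32 on the collagen arrays and 0.52 and 0.61 on the PMB arrays. Its collagen over PMB ratio was -0.21 ± 0.10.

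Mmp8, the collagenase of neutrophil granules, was at 0.99 and 1.41 on the collagen arrays and at -0.22 and -0.029 on the PMB arrays. The means were 1.20 ± 0.30 and -0.12 ± 0.13, so that collagen lay 2.50-fold above PMB. The collagen call of Mmp8 rested on replicate 2, since replicate 1 alone was at 0.99. Of 9 measured neutrophil markers in a list of 14, 6 passed 2-fold upward with collagen, and the medians were 1.33 with collagen and 0.035 with PMB. With PMB none passed 2-fold upward and 1 passed it downward, Retnlg at -1.29. Cxcr2 was at -0.82 with PMB, while Mpo, Lcn2, S100a8 and S100a9 were above 0, at 0.494, 0.345, 0.24 and 0.21. The markers ranged between 0.054 (Prtn3) and 2.56 (Lcn2) with collagen. Of 4 measured keratinocyte markers in a list of 12, 3 passed 2-fold upward with collagen and none with PMB, with medians of 1.37 and 0.13. The 6 measured giant cell and osteoclast markers of 7 had medians of 0.25 with collagen and -0.18 with PMB. Among them Acp5 was at 1.22 and -0.94, and Atp6v0d2 at -0.94 and -1.03, in the same order. The part of these cell types in the Mmp8, Mmp9 and Mmp3 values was not tested. Mmp13, the collagenase 3 that serves as a main interstitial collagenase in rodents, stood at -0.51 and -0.58 on the collagen arrays and at 0.053 and 0.093 on the PMB arrays. Both collagenases thus changed sign between the coatings on every array, in opposite directions. Mmp1a had no value on any array.

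Of the stromelysins only Mmp10 passed 2-fold between the coatings. Mmp3 (stromelysin-1), which cuts proteoglycans and activates other MMPs, was at 1.24 and 1.47 on the collagen arrays and at 0.31 and 0.76 on the PMB arrays, a mean of 1.36 ± 0.16 against 0.53 ± 0.32. It was above the non-coated level on all 4 arrays, and its collagen over PMB ratio was 0.82 ± 0.16. Mmp10 (stromelysin-2) was at 0.51 and 0.70 on the collagen arrays and at -1.32 and -1.33 on the PMB arrays. Its PMB mean of -1.32 ± 0.0099 was the lowest of any measured member with this coating, and collagen lay 3.81-fold above PMB, at 1.93 ± 0.15. Mmp11 (stromelysin-3), which furin activates inside the cell, was at 0.59 ± 0.0078 with collagen and 0.59 ± 0.014 with PMB. Its collagen over PMB ratio was 0.00050 ± 0.022, so that this gene did not separate the coatings.

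Mmp12, the metalloelastase of macrophages, was below the non-coated level on all 4 arrays. The values were -0.88 and -1.38 with collagen and -0.65 and -1.17 with PMB, and replicate 2 was lower in both pairs. The means were -1.13 ± 0.36 and -0.91 ± 0.37. Collagen replicate 1 alone did not reach 2-fold, and PMB replicate 2 alone did. The 10 measured macrophage markers of 12 had medians of -0.46 with collagen and -0.23 with PMB, with 1 of them at least 2-fold lower with collagen, Cd163, and their part in the Mmp12 values was not tested.

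Among the membrane-type MMPs, Mmp14 (MT1-MMP), which activates pro-MMP2 at the cell surface, had means of 0.51 ± 0.20 with collagen and 0.27 ± 0.22 with PMB. Its 2 probes disagreed on the comparison of the coatings, at -0.28 and 0.76. Mmp17, anchored in the membrane by a lipid, was at 0.30 ± 0.46 and 0.40 ± 0.13, and its collagen arrays differed in sign. The remaining measured MMPs were Mmp19 at -0.49 ± 0.17 with collagen and 0.20 ± 0.16 with PMB, and Mmp23 at 0.45 ± 0.079 and -0.031 ± 0.14. None of these 4 reached 2-fold in any comparison.

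In the reference annotation (GRCm38.p6), 10 MMP genes lie next to each other on chromosome 9, with 0 other protein-coding genes between them. Their order is Mmp13, Mmp12, Mmp1b, Mmp3, Mmp1a, Mmp10, Mmp8, Mmp27, Mmp20 and Mmp7, and 5 of them were measured. The measured genes of the cluster did not share a direction. With collagen the values along the cluster were -0.55 for Mmp13, -1.13 for Mmp12, 1.36 for Mmp3, 0.61 for Mmp10 and 1.20 for Mmp8. With PMB they were 0.073, -0.91, 0.53, -1.32 and -0.12 in the same order. Mmp12 and Mmp3, next to each other among the measured genes, had opposite signs with both coatings.

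**Figure D2:**
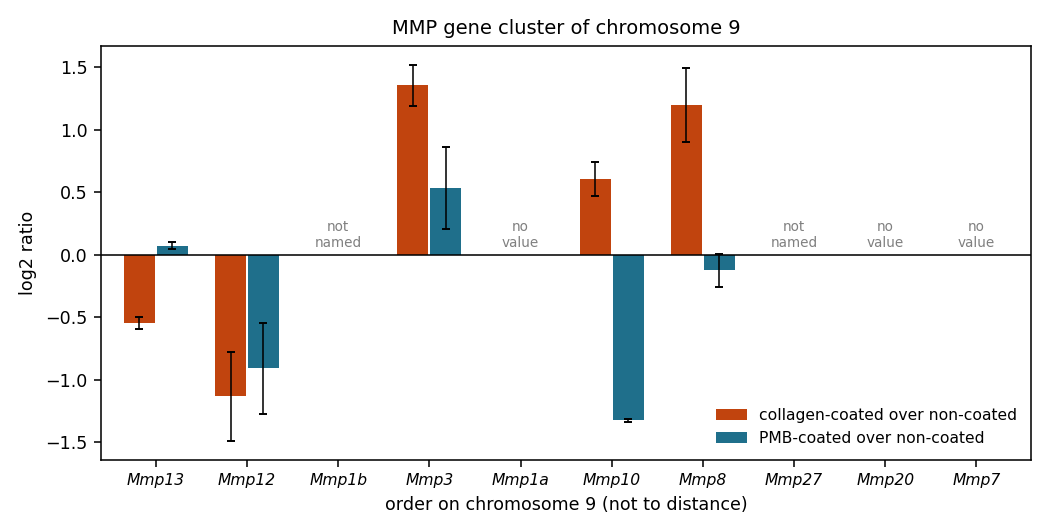
Log2 ratios of the MMP genes of chromosome 9 in their order along the chromosome, with collagen (left bar) and PMB (right bar) over non-coated. Bars are the mean of 2 arrays and error bars their SD. "No value" marks genes empty on every array and "not named" genes without a named probe. Mmp3 and Mmp8 reach 1.36 and 1.20 with collagen while Mmp12 lies at -1.13.

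The window of 250 bases before to 50 bases after the annotated start was searched for TGANTCA, the form of the site bound by the AP-1 transcription factor. The pattern reads the same on both strands. It occurred in 8 of the 10 genes of the cluster, in 5 of the 46 other members with a window, and in 8.97% of all 27025 genes with a window. The 100 bases before the start are given for the 5 measured cluster genes, to show what the genes of opposite direction have in their promoters. The sequences are from RefSeq (GRCm38.p6, plus strand), with the match in capitals.
Mmp3, chr9:7445722-7445821: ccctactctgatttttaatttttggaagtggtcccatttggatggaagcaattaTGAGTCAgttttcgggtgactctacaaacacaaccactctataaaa
Mmp10, chr9:7502242-7502341: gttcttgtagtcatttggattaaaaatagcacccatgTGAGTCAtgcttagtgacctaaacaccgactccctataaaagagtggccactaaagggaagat
Mmp12, chr9:7347274-7347373: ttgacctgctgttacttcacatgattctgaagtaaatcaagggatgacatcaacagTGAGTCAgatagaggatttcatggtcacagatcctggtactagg
Mmp13, chr9:7272414-7272513: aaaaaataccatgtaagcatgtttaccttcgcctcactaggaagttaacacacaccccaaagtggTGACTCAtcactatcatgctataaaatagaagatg
Mmp8, chr9:7558329-7558428: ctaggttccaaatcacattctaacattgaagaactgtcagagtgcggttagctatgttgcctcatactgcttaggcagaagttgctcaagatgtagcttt

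The match began at -46 in Mmp3, -63 in Mmp10, -44 in Mmp12 and -35 in Mmp13, counted back from the start. Mmp12 has 2 windows in the table, and the one with the match is shown. Mmp3 and Mmp12 both held TGAGTCA at nearly the same distance, and their ratios with collagen were 1.36 and -1.13. In Mmp8, which was higher with collagen, these letters were not in the window. A match of letters describes the sequence and does not show binding.

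The ADAMTS group held both the lowest member of all and most members that were lower with collagen. With collagen 5 of its 14 measured genes were at least 2-fold lower and 1 was higher, against 3.38% and 2.21% of all genes. With PMB none was either, against 1.40% and 0.616% of all genes. Adamts7, which cuts the cartilage matrix protein COMP, was the higher one, at 1.45 and 1.30 on the collagen arrays and at 0.45 and 0.40 on the PMB arrays. Its mean with collagen was 1.38 ± 0.10 (2.60-fold) and its 2 probes were at 1.37 and 1.38. With PMB the mean was 0.42 ± 0.037, and the 2 probes were at 0.25 and 0.59. This small SD arose in the averaging, as the probes stood at 0.49 and 0.018 and at 0.41 and 0.78 on the PMB arrays. Between the coatings the 2 probes were at 1.12 and 0.78, so only 1 of them passed 2-fold.

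Adamts19 was at -2.86 and -2.57 on the collagen arrays and at -0.47 and -0.37 on the PMB arrays. The mean of -2.71 ± 0.21 with collagen is a 6.56-fold lower level, and the mean with PMB was -0.42 ± 0.070. All 4 arrays were below 0, and the collagen arrays lay far below those of PMB. Its 2 probes were at -2.93 and -2.498 with collagen. In the same extracts all 12 skeletal muscle markers of a list were at least 2-fold lower with collagen, with a median of -2.81, and 11 with PMB, with a median of -1.93. Their part in the Adamts19 value was not tested. Adamts6, which acts on fibrillin microfibrils, was at -1.10 and -1.27 on the collagen arrays and at -0.41 and -0.68 on the PMB arrays, a mean of -1.19 ± 0.12 against -0.54 ± 0.19.

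Adamts3, Adamtsl4 and Adamtsl5 were lower with collagen than with PMB. Adamts3, which trims procollagen and activates the lymphatic growth factor VEGF-C, was at -0.73 and -1.005 on the collagen arrays and at 0.64 and 0.59 on the PMB arrays. Collagen lay 2.79-fold below PMB, at -1.48 ± 0.15. Adamtsl4, a binding partner of fibrillin, was at -0.96 and -1.05 on the collagen arrays and at 0.56 and 0.31 on the PMB arrays, and Adamtsl5 at -1.09 and -1.03 on the collagen arrays and at 0.41 and 0.35 on the PMB arrays. Their collagen over PMB ratios were -1.44 ± 0.11 and -1.43 ± 0.083. The collagen and the PMB arrays of these 3 genes lay on opposite sides of 0. In the same extracts 4 measured Schwann cell markers had medians of -0.99 with collagen and 0.53 with PMB, and the 8 adipocyte markers -0.60 and 1.18 in the same order. Of 5 tendon markers, 4 passed 2-fold downward with collagen and 2 with PMB, with medians of -1.15 and -0.51. The tendon marker Mkx went the other way, at 1.99 with collagen and 0.53 with PMB. The part of these cell types in the values was not tested. Adamtsl1 was at -0.97 and -1.18 on the collagen arrays and at 0.16 and -0.12 on the PMB arrays, so its PMB arrays disagreed in sign. On collagen replicate 1 alone, Adamtsl1 and Adamtsl4 stood at -0.97 and -0.96 and did not reach 2-fold. Adamts10, a further fibrillin-associated protease, was at -0.0085 ± 0.0064 and 0.46 ± 0.045.

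The proteoglycan-cutting enzymes, which act on versican and aggrecan, did not reach 2-fold with either coating. Adamts5 averaged -0.84 ± 0.13 with collagen and -0.22 ± 0.084 with PMB, and 1 of its 2 probes alone reached -1.01 with collagen. Adamts1 was at -0.76 ± 0.32 and -0.48 ± 0.19, and Adamts15 at -0.54 ± 0.16 and 0.051 ± 0.088. The values of Adamts4 and Adamts9 were 0.30 ± 0.47 and 0.52 ± 0.21 with collagen and -0.066 ± 0.42 and -0.035 ± 0.22 with PMB. The arrays of Adamts4 disagreed in sign for both coatings. Within this group Adamts9 was the only one above 0 on both collagen arrays. Adamts16 was below 0 on all 4 arrays, at -0.81 ± 0.15 and -0.56 ± 0.15.

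**Figure D3:**
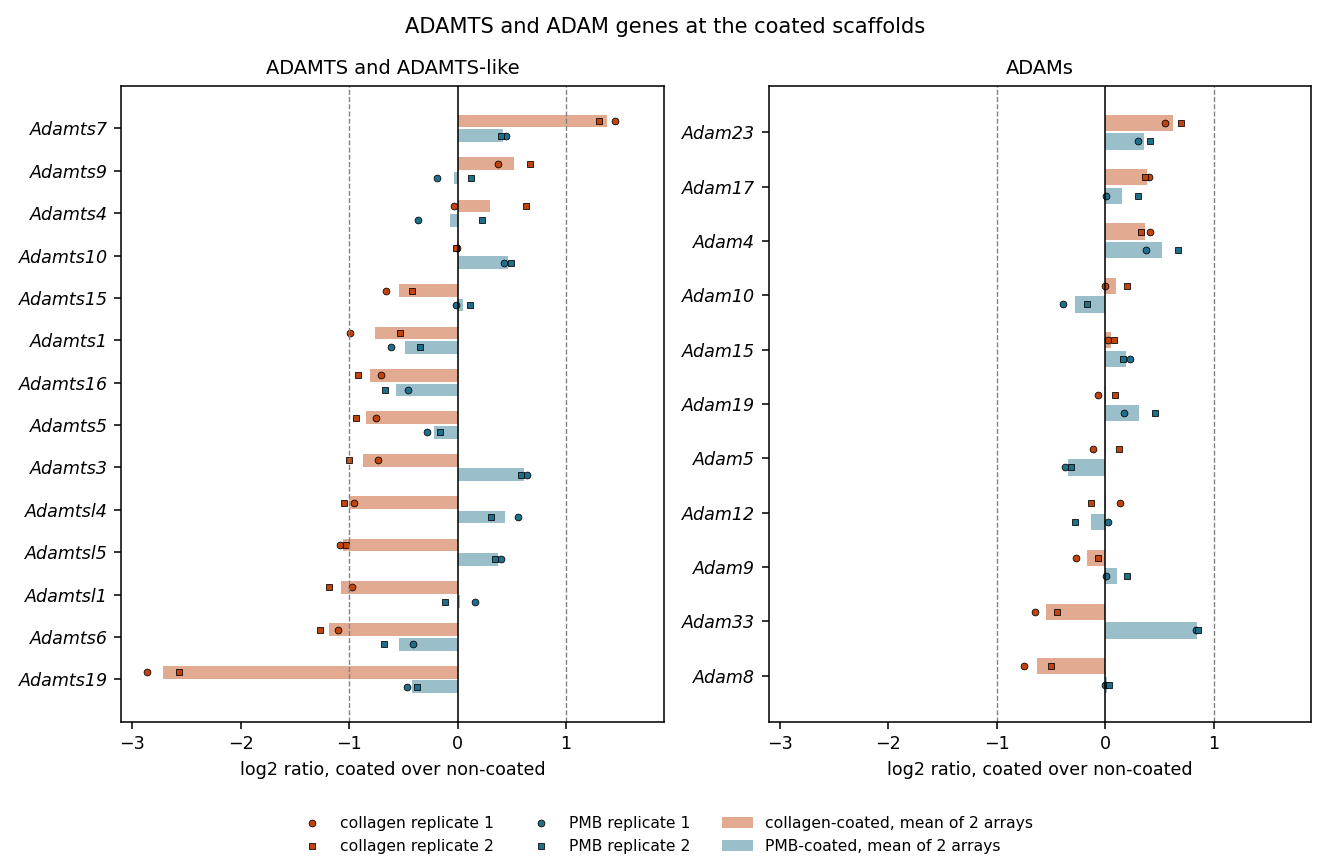
Log2 ratios of coated over non-coated for 14 ADAMTS and ADAMTS-like genes (left) and 11 ADAMs (right). Bars are the mean of the 2 arrays, circles replicate 1 and squares replicate 2, and dashed lines mark 2-fold. Of the 14 genes of the ADAMTS group 11 lie below 0 with collagen, against 5309 of all 11842 measured genes. Adamts19 is lowest at -2.71, and no ADAM passes either line.

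Among the ADAMs no gene of 11 passed 2-fold against the non-coated scaffold. Of all genes, 2.21% were higher and 3.38% lower with collagen, and 0.616% and 1.40% with PMB. At these shares the absence of calls among 11 genes is not particular to the ADAMs. The means of the ADAMs ranged between -0.62 and 0.63 with collagen and between -0.34 and 0.85 with PMB. The main membrane sheddases stayed near the non-coated level. Adam17, which releases TNF from the cell surface, was at 0.40 and 0.37 on the collagen arrays and at 0.010 and 0.30 on the PMB arrays. Adam10, which cuts Notch, was at 0.0030 and 0.20 on the collagen arrays and at -0.39 and -0.17 on the PMB arrays. Adam9, Adam12, Adam15 and Adam19 had means between -0.17 and 0.055 with collagen and between -0.13 and 0.32 with PMB. The 2 probes of Adam15 differed in sign with collagen, at -0.28 and 0.39.

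Adam33, expressed in mesenchymal cells and known from studies of asthma, was the exception in the comparison of the coatings. It was at -0.64 and -0.45 on the collagen arrays and at 0.83 and 0.86 on the PMB arrays, and its mean of 0.85 ± 0.019 with PMB was the highest of the measured members. This small SD arose in the averaging, as the probes of Adam33 stood at 0.83 and 0.67 and at 0.84 and 1.06 on the PMB arrays. Collagen was 2.62-fold below PMB, at -1.39 ± 0.12, and its 2 probes gave -1.40 and -1.38. In the PMB extract 6 of 8 adipocyte markers were at least 2-fold higher, with a median of 1.18, and the 10 fibroblast markers had a median of 0.29. With collagen the same medians were -0.60 and -0.11. The part of either cell type in the Adam33 value was not tested. Adam8, an ADAM of myeloid cells, was at -0.75 and -0.50 on the collagen arrays and at -0.0040 and 0.035 on the PMB arrays. Adam23, which has no catalytic activity and acts in adhesion, was the highest ADAM with collagen at 0.63 ± 0.10, and it was at 0.36 ± 0.077 with PMB. Its 2 probes ran opposite in the comparison of the coatings, at -0.31 and 0.83. Adam4 and Adam5, known from the testis, had means of 0.37 ± 0.059 and 0.0070 ± 0.17 on the collagen arrays, against 0.52 ± 0.21 and -0.34 ± 0.038 on the PMB arrays.

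The inhibitors did not move together. Timp1, the inducible inhibitor that binds pro-MMP9, was at 0.43 and 0.57 on the collagen arrays and at -0.13 and 0.10 on the PMB arrays, a mean of 0.50 ± 0.10 against -0.013 ± 0.16. Timp2, which joins pro-MMP2 to MMP14, was at -0.46 and -0.050 on the collagen arrays and at 0.54 and 0.54 on the PMB arrays. Timp3, which is bound to the matrix and inhibits ADAM17 and the proteoglycan-cutting ADAMTS enzymes, was at -1.34 and -1.19 on the collagen arrays and at -0.47 and -0.46 on the PMB arrays. It was 2.41-fold lower with collagen, at -1.27 ± 0.11, and 1.38-fold lower with PMB, at -0.46 ± 0.0078. Reck, which restrains MMP2, MMP9 and MMP14 at the cell surface, was at -0.68 and -0.36 on the collagen arrays and at 0.20 and 0.40 on the PMB arrays. Timp1 was thus the only inhibitor above 0 with collagen. In the comparison of the coatings Timp2, Timp3 and Reck were at -0.79 ± 0.29, -0.80 ± 0.10 and -0.82 ± 0.084, none of them 2-fold over both arrays, and Timp1 was at 0.51 ± 0.064. Furin was at 0.11 and 0.13 on the collagen arrays and at 0.72 and 0.86 on the PMB arrays, and its collagen over PMB ratio was -0.67 ± 0.095.

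To set proteases against their inhibitors, the ratio of the inhibitor was subtracted from that of the protease on each array. This gives how unequally 2 genes changed and says nothing about their absolute levels or about protein. Mmp9 gained on Timp1 by 2.47 and 2.27 on the collagen arrays and stood at -0.75 and -0.83 on the PMB arrays. Its mean of 2.37 ± 0.14 with collagen is 5.17-fold, and against Reck the mean was 3.38 ± 0.27. Mmp3 minus Timp1 was at 0.86 ± 0.064 with collagen and 0.55 ± 0.16 with PMB. For Mmp2 minus Timp2 the values were 0.84 and 0.37 with collagen and -0.014 and 0.068 with PMB, and for Mmp14 minus Timp2 they were 1.12 and 0.42 with collagen and -0.11 and -0.42 with PMB. The sign of the Mmp14 pair with PMB depends on the probe. Its 2 probes had PMB means of -0.0875 and 0.64, on either side of Timp2 at 0.54.

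The proteases paired with Timp3 lay above it with collagen, as nearly all measured genes did. Only 2.14% of all measured genes had a lower mean with collagen than Timp3, so the sign of these pairs is no result. Adam17 minus Timp3 was at 1.75 and 1.56 on the collagen arrays and at 0.48 and 0.76 on the PMB arrays, Adam10 minus Timp3 at 1.35 and 1.39 and at 0.081 and 0.29, and Adamts4 minus Timp3 at 1.31 and 1.82 and at 0.11 and 0.69. The means with collagen were 1.65 ± 0.14, 1.37 ± 0.031 and 1.56 ± 0.36. Adamts5 was itself low with collagen and gained least, at 0.43 ± 0.24 with collagen and 0.25 ± 0.076 with PMB. For Adam17 and Adam10 the collagen gap came mainly from Timp3 at -1.27, as the proteases were at 0.39 and 0.10.

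**Figure D4:**
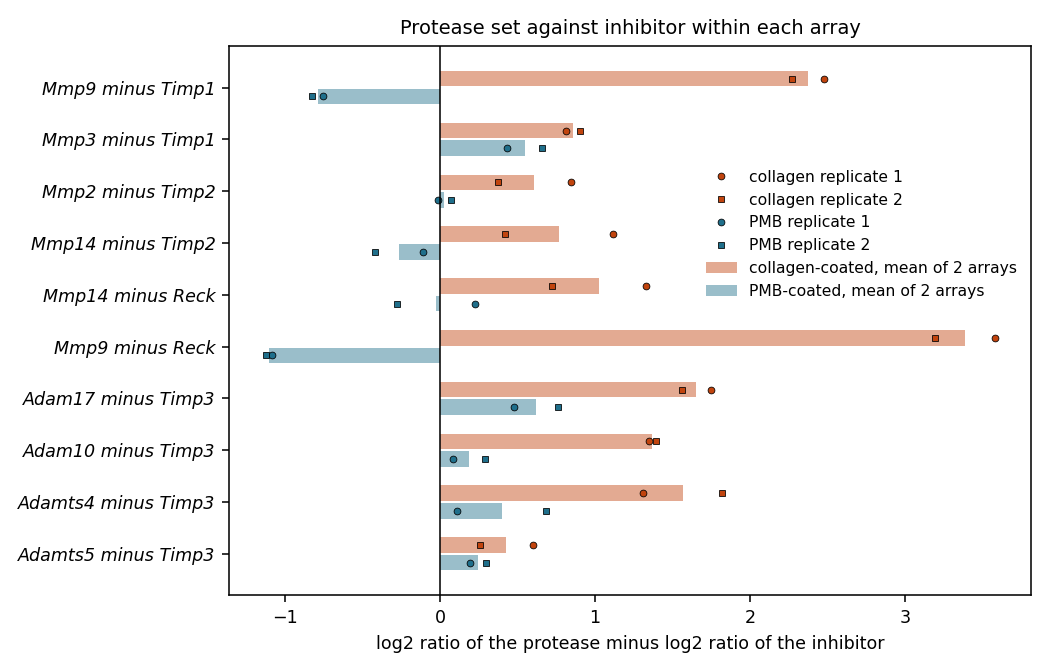
Log2 ratio of a protease minus that of an inhibitor within each array, coated over non-coated, for 10 pairs. Bars are the mean of the 2 arrays, circles replicate 1 and squares replicate 2. All 10 chosen pairs lie above 0 with collagen on both arrays, and the pairs of Mmp9 lie below 0 with PMB. MMPs that were low with collagen, such as Mmp12 and Mmp13, were not paired.

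Between the coatings, collagen lay at least 2-fold above PMB for 3 measured members (7.14%), Mmp9, Mmp10 and Mmp8, against 2.74% of all genes. In the same comparison 6 were lower (14.3%), Adamts19, Adamts3, Adamtsl4, Adamtsl5, Adam33 and Adamtsl1, against 3.67% of all genes. The 3 higher genes are MMPs, and no MMP was lower. At the share of 3.67% the absence of lower calls among 12 MMPs is not particular to them. Of the 12 MMPs, 5 lay below 0, the lowest being Mmp19 at -0.69. The medians were 0.12 for MMPs, -0.14 for ADAMs, -0.61 for the ADAMTS group and -0.80 for the 4 inhibitors, with 0.0012 for all named genes. The members nearest to 2-fold were Mmp8 at 1.32 and Adamts7 at 0.95 on the higher side, and Adamtsl1 at -1.10 and Reck at -0.82 on the lower side. Of the 42 measured members, 4 were above 0 on both collagen arrays and below 0 on both PMB arrays, against 12.4% of all genes. The other way ran 10 of the 42, a larger share than the 11.4% of all genes. Both ratios contain the same non-coated extract.

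**Figure D5:**
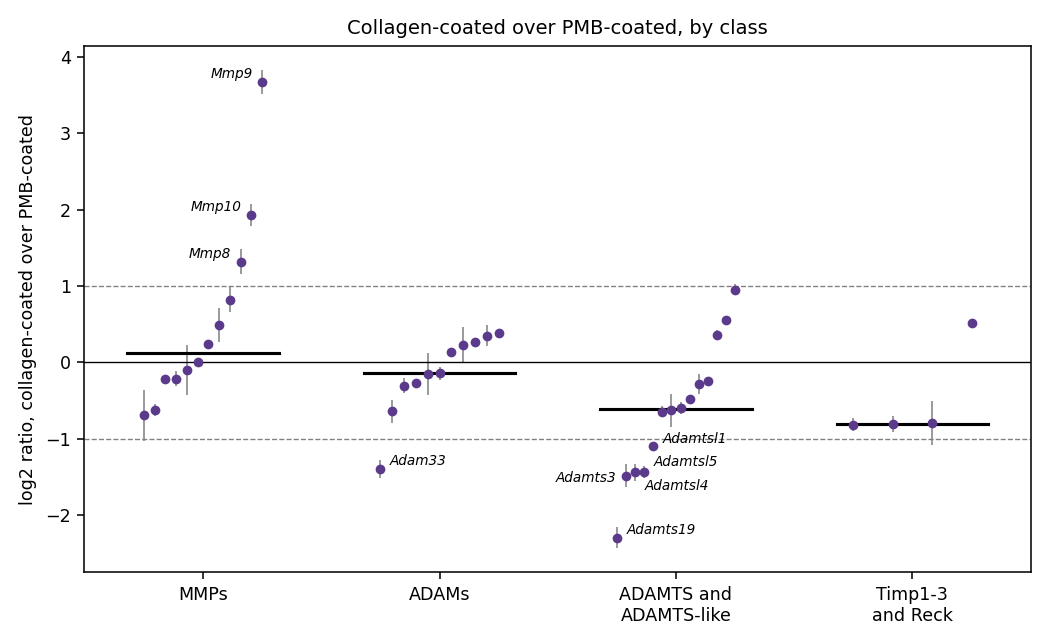
Log2 ratios of collagen-coated over PMB-coated for each measured gene by class. Points are the mean of both dye orientations, error bars their SD, horizontal bars the class median and dashed lines 2-fold. The 3 genes above the upper line are MMPs, and 5 of the 6 below the lower line belong to the ADAMTS group.

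A list of 47 related genes outside the families was set beside them, and 27 were measured. With collagen 1 was at least 2-fold higher and 2 were lower, against 2.21% and 3.38% of all genes. With PMB none was higher and 1 was lower, against 0.616% and 1.40% of all genes. For 27 genes these counts are near those shares. Tnf, the main substrate of ADAM17, was at 1.55 ± 0.10 with collagen and 0.68 ± 0.079 with PMB. A2m, the broad protease inhibitor of plasma, had means of -1.97 ± 0.16 with collagen and -0.56 ± 0.25 with PMB, and the furin-like convertase Pcsk6 means of -1.54 ± 0.0035 and 0.37 ± 0.28. Plau, the urokinase that generates plasmin, was at -0.94 ± 0.092 with collagen and -1.15 ± 0.16 with PMB. Tfpi2, an inhibitor of plasmin and of some MMPs, was at 0.63 ± 0.18 and -0.69 ± 0.21. Only this listed gene passed 2-fold upward between the coatings, against 2.74% of all genes. A2m and Pcsk6 passed it downward, against 3.67% of all genes. The iRhom genes Rhbdf1 and Rhbdf2, which carry ADAM17 to the cell surface, had means of 0.078 ± 0.28 and 0.35 ± 0.055 for collagen, against 0.21 ± 0.37 and 0.24 ± 0.089 for PMB.

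Of the 78 members named on the array, 13 had values on some arrays only and 23 on none. The measured genes were 12 of 20 MMPs, 11 of 30 ADAMs, 14 of 22 genes of the ADAMTS group and 4 of 5 inhibitors. The reason for an empty spot is unknown, so an empty gene is not shown to be silent. The 15 ADAMs with no value included Adam2 and Adam3, which act on sperm. Mmp7, Mmp20, Mmp21 and Mmp24 were empty as well. Among partly measured genes, Adamts8, a proteoglycan-cutting enzyme, had its only values on PMB replicate 1, where 2 probes were at 1.72 and 1.56. Adamts18 was at 0.71 and 0.71 on the PMB arrays and at -1.84 on collagen replicate 2. Timp4, an inhibitor known from heart, muscle and fat, was at -1.09 and -0.21 on the collagen arrays and at 0.51 on PMB replicate 1. Mmp16, a membrane-type MMP, was at 0.82 and 0.88 on the collagen arrays and at -0.36 on PMB replicate 1. None of these entered the counts above.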

How the data were processed

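RNA ratios of 4 two-colour Agilent whole mouse genome arrays were used, 2 for each coating. The deposited values are log2 of Cy5 over Cy3 after LOWESS normalization by the authors. The rule by which spots were left empty was not given in the sources used here. Values were present for 52.3% to 60.5% of the 43377 probes per array, and no intensities were used, so the signal behind a ratio is unknown. The number of arrays limits the precision. Replicate 2 was turned in sign, and no further normalization was applied. Probes with 1 gene symbol (33651) were named from the platform annotation, updated through RefSeq (GRCm38.p6). Probes of 1 gene with values on every array were averaged. A call required a mean log2 ratio of at least 1 in size and the same sign on both arrays.

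The genes named are the members past 2-fold in any comparison, all inhibitors, Furin, the extremes of each class, members whose probes differ by over 1 in log2, and the MMPs of chromosome 9. Remaining measured members, the protease-inhibitor pairs and partly measured genes were added after their values were seen. Members and lists were chosen with earlier results of these data known. A split of ADAMs by their catalytic motif was planned and not made, since no protein sequences were used here. Python 3.11.15, pandas 2.3.3, numpy 2.4.6 and matplotlib 3.10.9 were used. Alternatives were single arrays, array scaling and centring, other probe summaries, other probe filters and other call rules.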

Additional observations from a re-analysis of the deposited data

Results flagged for a closer look

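In 14 of the 42 measured members both collagen arrays lay on one side of 0 and both PMB arrays on the other. The difference was not tested, both ratios share the non-coated extract, and 2 arrays of 1 extract make such a pattern easy to reach where values are small. The collagen minus PMB log2 ratio was above 0 for Mmp9 at 3.67, Mmp10 at 1.93, Mmp8 at 1.32 and Adam10 at 0.38, a direction that 12.4% of all 11842 genes showed. It was below 0 for Adamts3 at -1.48, Adamtsl4 at -1.44, Adamtsl5 at -1.43, Adam33 at -1.39, Reck at -0.82, Timp2 at -0.79, Mmp19 at -0.69, Mmp13 at -0.62, Adamts10 at -0.47 and Adam9 at -0.27, a direction that 11.4% of all genes showed.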

How the results depend on the processing

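No paired analysis was possible because the results come from no test and the replicate number marks the dye orientation of 1 pair of extracts. Of 96 counts and medians recomputed with both arrays of each coating, 85 stayed within 1.5 times the count or within the SD of the array medians. None of the 924 values of single members reversed the sign of a call. Only called members could count, and a call already needs the same sign on both arrays, so this outcome was nearly fixed. Calls were lost and gained, as given below. When each array had to reach 2-fold, 4 members were lower with collagen in place of 7, against 2.69% of all genes. At 1.5-fold, 7 were higher and 12 lower with collagen, 4 higher and 3 lower with PMB, and 5 higher and 16 lower with collagen than with PMB. The shares of all genes at 1.5-fold were 6.4% and 7.6%, 4.32% and 4.48%, and 9.35% and 10.2% in the same order. With the probe of smallest dye difference, Adamts5 gained a lower call with collagen at -1.01, the median of ADAMs with collagen was -0.06, that of MMPs with PMB 0.02, and those of MMPs and the ADAMTS group between the coatings 0.24 and -0.62. Leaving out 1 array at a time, the members lower with collagen numbered 4 to 8, against 3.58% to 3.59% of all genes. Those lower with PMB numbered 1 to 2, against 1.5% to 1.97% of all genes. The same ranges for medians were 0.00 to 0.09 for ADAMs with collagen and 0.03 to 0.20 with PMB, and -0.57 to -0.20 for inhibitors with collagen and 0.03 to 0.25 with PMB. Between the coatings they were 0.04 to 0.21 for MMPs, -0.11 to -0.02 for ADAMs, -0.60 to -0.54 for the ADAMTS group and -0.93 to -0.62 for inhibitors. Without collagen replicate 2, Mmp8 at 0.99, Adamtsl1 at -0.97, Adamtsl4 at -0.96 and Mmp12 at -0.88 lost their call, and against PMB Adamtsl1 stood at -0.99, Adamts7 at 1.03 and Timp2 just reached 2-fold lower. Without collagen replicate 1, Adamts3 was at -1.005 with collagen. Without PMB replicate 1, Mmp12 reached -1.17 with PMB and Adamtsl1 was at -0.96 between the coatings. Without PMB replicate 2, Mmp3 was at 1.05 between the coatings. The causes were not tested. One mouse per scaffold limits every result.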
